A study of Arabidopsis thaliana with 4 samples.

Results

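Proteins of the plant invertase and pectin methylesterase inhibitor family are small secreted or vacuolar proteins, and 32 single-domain genes of the family are described here, of 33187 gene identifiers in the deposited table. They were chosen by annotation, though with earlier results of these data known. The named inhibitors PMEI13, PMEI14 and PMEI15 are not among them. Transcript levels were measured in whole seeds of Arabidopsis thaliana at 7 days post anthesis, with embryos between torpedo and linear stage. There were 2 libraries labelled erf4, from the T-DNA insertion line SALK_073394, and 2 wild-type libraries, with no treatment named for either genotype. The labels do not say whether replicate libraries were made from different plants, so p-values reflect library-to-library spread that could be technical.

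Pectin leaves the Golgi as methylesterified homogalacturonan, and pectin methylesterases remove the methyl groups in the wall. Pectin methylesterase inhibitors (PMEIs) bind these enzymes and block them, so the balance of enzyme and inhibitor sets how far the pectin is demethylesterified. Relatives with the same fold inhibit acid invertases instead, the enzymes that split sucrose in the wall and the vacuole. In the Arabidopsis seed coat this chemistry affects the release of mucilage, and ERF4, an ethylene response factor with a repressive EAR motif, is known to act on it. The comparison asks how the transcripts of these inhibitors differ between seeds labelled erf4 and wild-type seeds.

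All 32 genes carry a pectinesterase inhibitor domain in the RefSeq annotation of TAIR10.1, and 0 of them carry the catalytic pectinesterase domain, so the annotation fits the family name. Their coding sequences hold between 160 and 312 codons (median 202), against a median of 538 codons in 61 listed pectin methylesterases, of which 44 have an inhibitor-like domain of their own in front of the enzyme. The family is built from mostly uninterrupted genes, with 1 coding exon in 25 of the 32 and 4 in the invertase inhibitor gene C/VIF1. Cysteines, which form disulfide bridges in these inhibitors, number between 3 and 9 codons per gene (median 5).

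The values are TPM, in which each gene's share of the transcripts, corrected for length, is scaled to a fixed total per library. Depth is unknown from such values. ERF4 itself (AT3G15210) had 34.6 and 41.3 TPM in the libraries labelled erf4 and 38.0 and 33.0 TPM in the wild type. Its level therefore does not check the genotype labels, and gene-level TPM do not show whether a transcript is interrupted. Seed coat markers, 8 genes of which 0 were listed at 0 in any library, summed to 1642 and 1697 TPM in the libraries labelled erf4 and to 1325 and 1383 TPM in the wild type, with 3 genes above and 1 below the wild-type range. Embryo markers, 7 genes, summed to 14673 and 1612 TPM in the libraries labelled erf4, against 15230 and 10551 TPM in the wild type. Replicate 2 labelled erf4 stood apart in AT4G27160 (10649 and 137 TPM labelled erf4), AT5G44120 (2311 and 309 TPM) and AT5G40420 (744 and 241 TPM). In the rest of the list the libraries labelled erf4 were less far apart, as in AT5G51210 (734 and 644 TPM) and AT4G34520 (52.2 and 56.9 TPM). Of the 7 genes, 1 lay above and 5 below the wild-type range. Endosperm markers, 6 genes, summed to 795 and 652 TPM in the libraries labelled erf4, against 1540 and 1199 TPM in the wild type. Nearly all of that sum is EPR1 (AT2G27380), with 779 and 633 TPM in the libraries labelled erf4 and 1530 and 1189 TPM in the wild type. FWA (AT4G25530), FIS2 (AT2G35670) and PHE1 (AT1G65330) lay above the wild-type range. AT1G02580 stood at a log2 fold change of -0.17 with overlap. AT5G60440, not tested, had 0.18 and 0.06 TPM in the libraries labelled erf4, against 0.24 and 0.43 TPM in the wild type. The median log2 fold change of the 5 tested markers was 0.51. Silique wall and leaf markers, 8 genes, summed to 1860 and 1622 TPM in the libraries labelled erf4, against 1413 and 980 TPM in the wild type, with 6 genes above and 1 below its range. Over all tested genes 21.5% lay above and 12.2% below the wild-type range. In these bulk samples a smaller share of a cell type and less RNA per cell cannot be told apart, and the part of the markers in the results below was not tested.

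The inhibitor genes ranged from silent to well expressed in these seeds. Of the 32, 19 reached 1 TPM in at least 2 of the 4 libraries and were tested, with 0 passing through one genotype alone, and 14 had a mean of at least 5 TPM. Another 12 stayed below 1 TPM in every library, the highest single value among them being 0.97 TPM. PMEI4 (AT4G25250), AT5G51520 and AT5G62340 were listed at 0 in every library. The other members below 1 TPM were PMEI5 (AT2G31430), PMEI11 (AT3G47380), UNE11 (AT4G00080), APPB1 (AT4G24640), AT1G55770, AT1G70720, AT3G17150, AT3G55680 and AT4G02250. PMEI5 and PMEI4 are known from vegetative growth, where raised PMEI5 levels alter stems and seed germination. The remaining untested gene, AT3G49330, had 0.41 and 0.18 TPM in the libraries labelled erf4 and 3.53 and 0.76 TPM in the wild type. Its single high value lay in wild type replicate 1.

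**Figure D1:**
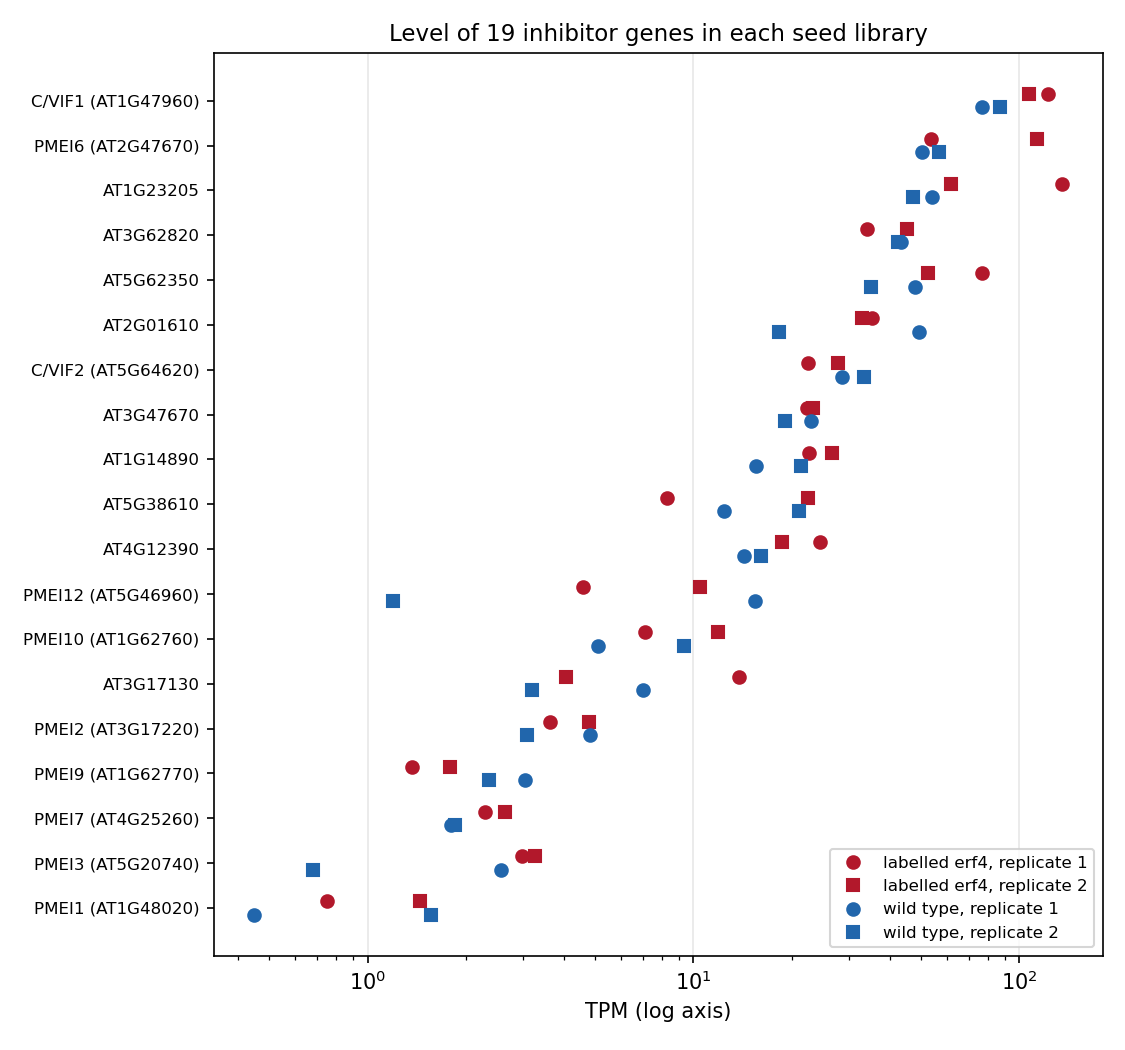
TPM of the 19 tested inhibitor genes in each library, on a log axis, with genes in the order of their wild-type mean; red marks are the libraries labelled erf4, blue marks the wild type, and circles and squares are replicates 1 and 2. C/VIF1 has the highest values in the wild type. Labelled erf4, AT1G23205 exceeds it in replicate 1 (135 against 122 TPM) and PMEI6 in replicate 2 (114 against 107 TPM). PMEI12 shows the widest gap on this axis between the wild-type libraries, 15.5 and 1.20 TPM.

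A few genes carried most of the family's transcripts. In the wild type C/VIF1 led with a mean of 81.8 ± 7.38 TPM, followed by PMEI6 with 53.5 ± 4.54, AT1G23205 with 50.5 ± 4.93, AT3G62820 with 42.9 ± 0.615, AT5G62350 with 41.4 ± 8.93 and AT2G01610 with 33.8 ± 21.9 TPM (SD, n = 2). Among the 14 highest genes, 10 of the 13 neighbouring pairs in this order had overlapping wild-type libraries. The steps without overlap were those from C/VIF1 to PMEI6, from AT1G23205 to AT3G62820 and from C/VIF2 to AT3G47670. The 6 genes of this group with the highest mean over all libraries held most of its summed TPM. Their share was 76.5% and 71.8% in the libraries labelled erf4, and 69.6% and 67.6% in the wild type. The closest pair in sequence differed in level. PMEI11, an inhibitor linked to immunity against Botrytis, stayed below 1 TPM, while AT5G62350, whose coding sequence is 74.2% identical to it, had 35.1 TPM or more in every library. PMEI6 and AT3G62820 are the closest pair among the expressed members, with 66.6% identity against a median of 47.5% over 595 pairs, a set that includes PMEI13, PMEI14 and PMEI15.

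The summed level of the 32 genes was higher in both libraries labelled erf4. It was 597 and 576 TPM in the libraries labelled erf4, against 461 and 424 TPM in the wild type, a ratio of means of 1.32. The genotypes did not overlap, and they did not overlap either without AT1G23205 and C/VIF1, when the sums were 340 and 407 TPM in the libraries labelled erf4 and 331 and 290 TPM in the wild type. With 2 libraries per genotype a two-sided exact permutation test cannot go below p = 0.333, so no test of a single sum was made. The 12 genes below 1 TPM summed to 2.96 and 2.72 TPM in the libraries labelled erf4 and 2.83 and 2.57 TPM in the wild type, with overlap.

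No member was called by limma, which fitted log2(TPM + 1) over 20804 genes with genotype as the only term and called a gene at a Benjamini-Hochberg adjusted p under 0.05. The shares called over all genes were 0% higher and 0% lower. At an unadjusted p under 0.05 limma had 1452 genes, 4.23% of those tested being higher and 2.74% lower, and 1 of the 19 members, C/VIF1. Of the 19, 15 had a positive log2 fold change and 4 a negative one, which is 78.9% positive, beside 55.9% of all tested genes. Both libraries labelled erf4 lay above the wild-type range for 7 members (36.8%) and below it for 2 (10.5%), beside 21.5% and 12.2% of all tested genes. The median log2 fold change of the tested members was 0.37, and that of all tested genes 0.03. Without replicate 2 labelled erf4 the members' median was 0.088 and 12 of 19 were positive. In that fit the median of all tested genes was -0.066 and 41.4% were positive. Without wild type replicate 2 the members' median was 0.21, beside 0.026 for all tested genes. After rescaling by median of ratios 49.0% of all tested genes were positive, 18.2% lay above and 18.4% below the wild-type range, while 15 of the 19 members were positive, 7 lay above and 3 below.

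**Figure D2:**
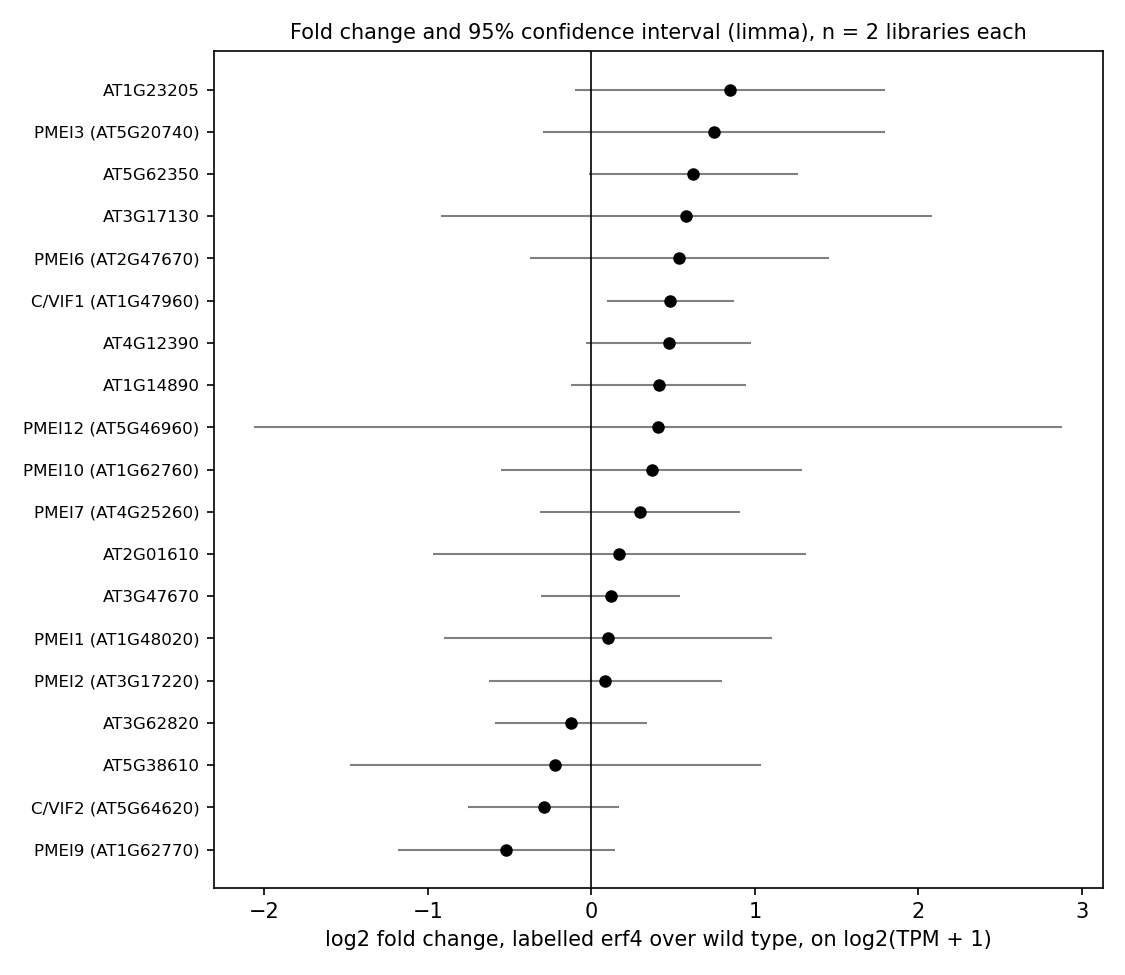
Log2 fold change of the 19 tested inhibitor genes, labelled erf4 over wild type, on the log2(TPM + 1) scale; points are limma estimates and bars 95% confidence intervals from 2 libraries of each genotype. The interval of C/VIF1 runs from 0.10 to 0.87, and those of the other 18 genes include 0.

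**Figure D3:**
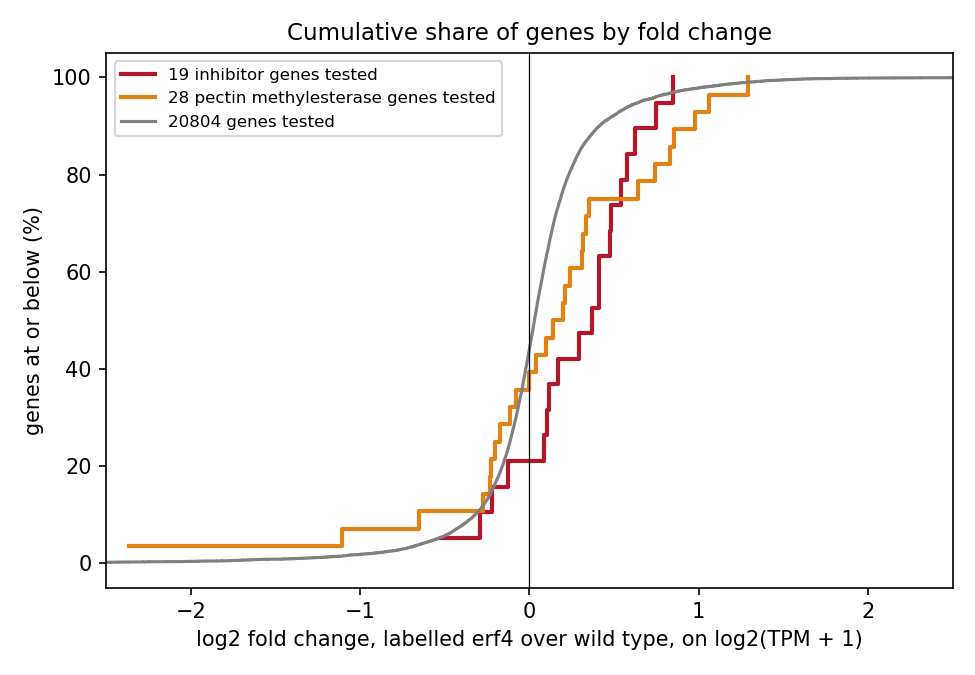
Cumulative share of genes, in percent, by log2 fold change on the log2(TPM + 1) scale, for the 19 tested inhibitor genes, the 28 tested pectin methylesterase genes and all 20804 tested genes. The inhibitor genes reach from -0.52 to 0.85 and have their median at 0.37, to the right of the median of 0.17 of the pectin methylesterases and of 0.03 of all genes.

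The inhibitors of invertase stood on opposite sides of the wild type. C/VIF1 (AT1G47960), which inhibits vacuolar invertase, had 122 and 107 TPM in the libraries labelled erf4, against 76.6 and 87.1 TPM in the wild type. Both libraries labelled erf4 were the higher ones, with a log2 fold change of 0.48 (SE 0.15, limma adjusted p = 0.601, not called). C/VIF2 (AT5G64620), which inhibits invertases of both the wall and the vacuole, had 22.5 and 27.7 TPM in the libraries labelled erf4, against 28.5 and 33.3 TPM in the wild type. Here both libraries labelled erf4 were the lower ones (log2 fold change -0.29, SE 0.18, limma adjusted p = 0.922, not called). The value was -0.15 without replicate 1 labelled erf4 and -0.18 without wild type replicate 2. Within a library the ratio of C/VIF1 to C/VIF2 does not depend on the scaling between libraries. It was 5.44 and 3.87 in the libraries labelled erf4 and 2.69 and 2.61 in the wild type, and it was computed after these values were seen. With C/VIF1 above and C/VIF2 below the wild-type range, this ratio could not overlap between the genotypes, so it adds no separate evidence. The coding sequences of the pair are 44.8% identical, below the median of all pairs.

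Acid invertases are the targets of these inhibitors. Of 8 listed genes 6 were tested, with 4 positive and 2 negative log2 fold changes (median 0.10). Both wild-type libraries were exceeded by 2 of the 6, and 0 lay under both, beside 21.5% and 12.2% of all tested genes. Limma called 0, also 0 at an unadjusted p under 0.05. The vacuolar invertase gene AT1G62660 had 9.42 and 10.8 TPM in the libraries labelled erf4, against 7.52 and 8.41 TPM in the wild type, without overlap (log2 fold change 0.31). CWINV4 (AT2G36190), a cell wall invertase, had 1.75 and 1.21 TPM in the libraries labelled erf4, against 1.18 and 0.36 TPM in the wild type (log2 fold change 0.52). CWINV1 (AT3G13790) stood at -0.32, with overlapping libraries. The summed C/VIF1 and C/VIF2 transcripts came to 0.941 and 0.963 of the summed invertase transcripts in the libraries labelled erf4, against 0.804 and 0.881 in the wild type.

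PMEI6 (AT2G47670), which acts in mucilage-secreting cells and is needed for normal mucilage release, was high in one library only. It had 53.4 and 114 TPM in the libraries labelled erf4, against 50.3 and 56.7 TPM in the wild type. Replicate 1 labelled erf4 lay within the wild-type range and replicate 2 above it, so the genotypes overlapped (log2 fold change 0.54, SE 0.36, limma adjusted p = 0.950). Without replicate 2 labelled erf4 the log2 fold change was 0.0017, and without replicate 1 labelled erf4 it was 1.07. MUM2 (AT5G63800), a galactosidase of the same cells, was also higher in replicate 2 of each genotype, with 55.7 and 159 TPM in the libraries labelled erf4, against 88.4 and 154 TPM in the wild type. AT3G62820, the closest relative of PMEI6 in sequence, had 34.0 and 45.2 TPM in the libraries labelled erf4, against 43.3 and 42.4 TPM in the wild type. Its wild-type values lay inside the range of the libraries labelled erf4.

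AT1G23205, a member with no role given here, had the largest log2 fold change of the 19 tested genes with the pseudocount of 1. With 0.1 it stood at 0.86, under the 1.16 of PMEI3 (AT5G20740). AT1G23205 had 135 and 61.8 TPM in the libraries labelled erf4, against 54.0 and 47.0 TPM in the wild type. Both libraries labelled erf4 lay above the wild type, but they were 2.19-fold apart, and the log2 fold change of 0.85 (SE 0.37, limma adjusted p = 0.776, not called) was 0.29 without replicate 1 labelled erf4 and 1.41 without replicate 2 labelled erf4. PRX36 (AT3G50990), a seed coat peroxidase among the markers, had the same order of libraries, with 366 and 170 TPM in the libraries labelled erf4, against 81.1 and 74.7 TPM in the wild type. The ratio of AT1G23205 to PRX36, computed after these values were seen, was 0.369 and 0.364 in the libraries labelled erf4 and 0.666 and 0.629 in the wild type. AT1G23200, a pectin methylesterase gene 2 protein-coding genes away on the other strand, had 438 and 506 TPM in the libraries labelled erf4, against 425 and 580 TPM in the wild type, with overlap (log2 fold change -0.08).

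AT5G62350 and PMEI13 (AT5G62360) are direct neighbours on one strand and kept nearly one ratio in every library. AT5G62350 had 76.8 and 52.6 TPM in the libraries labelled erf4, against 47.7 and 35.1 TPM in the wild type, with both libraries labelled erf4 above the wild-type range (log2 fold change 0.62, SE 0.25, limma adjusted p = 0.726, not called). The value was 0.35 without replicate 1 labelled erf4 and 0.41 without wild type replicate 2. PMEI13 had 69.1 and 51.0 TPM in the libraries labelled erf4, against 45.1 and 32.9 TPM in the wild type. Their ratio was 1.11 and 1.03 in the libraries labelled erf4 and 1.06 and 1.07 in the wild type. The coding sequences of the pair are 55.2% identical, and the third gene of the cluster, AT5G62340, was listed at 0 throughout. Other neighbouring pairs varied. C/VIF2 and the pectin methylesterase gene AT5G64640, 2 protein-coding genes away on the same strand, had log2 fold changes of -0.29 and -0.28. The tandem genes PMEI10 and PMEI9 had log2 fold changes of 0.37 and -0.52. PMEI7 was expressed at 1.80 to 2.65 TPM beside the silent PMEI4, and AT3G17130 beside AT3G17150, which reached 0.24 TPM in wild type replicate 1 and was at 0 in the other libraries.

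**Figure D4:**
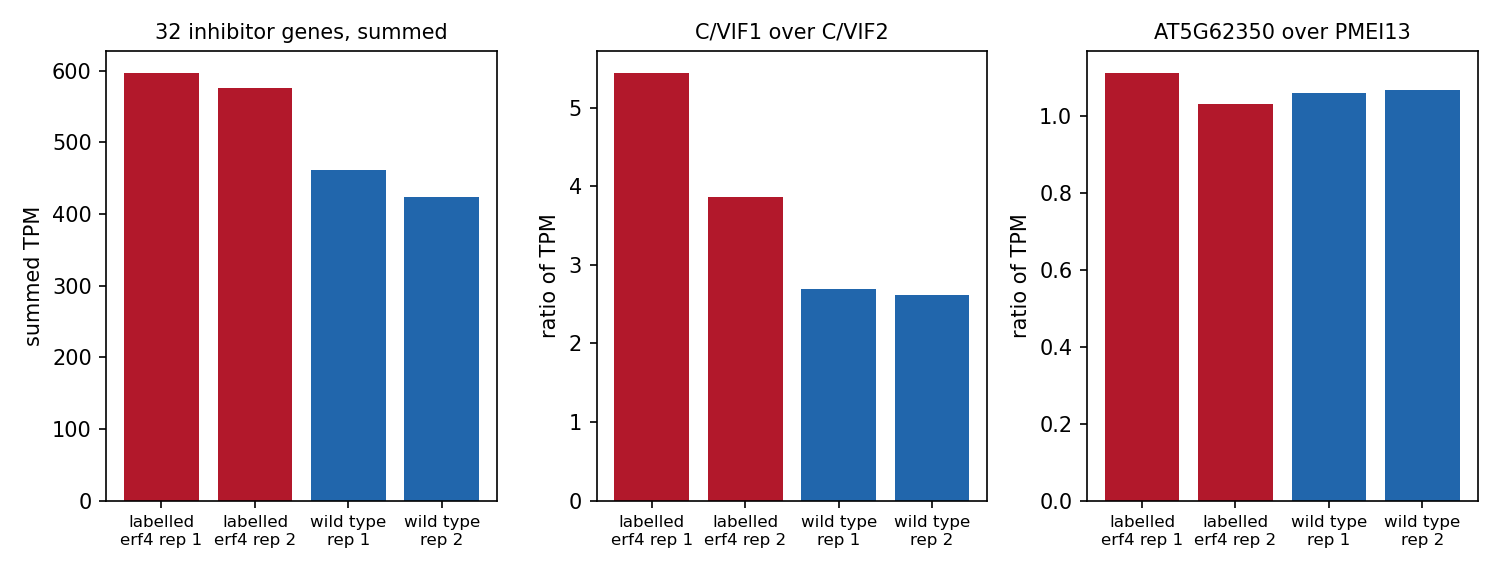
Bars give, for each library, the summed TPM of the 32 inhibitor genes, the ratio of C/VIF1 to C/VIF2 and the ratio of AT5G62350 to its neighbour PMEI13, with the libraries labelled erf4 in red and the wild type in blue. The sum (597 and 576 TPM labelled erf4, 461 and 424 TPM wild type) does not overlap between genotypes. The first ratio (5.44 and 3.87 labelled erf4, 2.69 and 2.61 wild type) could not overlap, since C/VIF1 lay above and C/VIF2 below the wild-type range. The second ratio stays between 1.03 and 1.11.

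Inhibitors known from vegetative growth were low in these seeds. PMEI3 (AT5G20740), whose overexpression blocks organ formation at the shoot apex, had 2.98 and 3.26 TPM in the libraries labelled erf4, against 2.57 and 0.68 TPM in the wild type. Its log2 fold change of 0.75 was 0.21 without wild type replicate 2, against 1.29 when replicate 1 was left out instead. PMEI7 (AT4G25260), an inhibitor of the enzyme PME3, had 2.30 and 2.65 TPM in the libraries labelled erf4, against 1.80 and 1.86 TPM in the wild type, without overlap (log2 fold change 0.29). PMEI9 (AT1G62770), studied in roots, was the other member below the wild-type range, with 1.37 and 1.79 TPM in the libraries labelled erf4, against 3.05 and 2.36 TPM in the wild type (log2 fold change -0.52, SE 0.26, limma adjusted p = 0.832, not called). At such levels the pseudocount of 1 understates the change: with 0.1 the log2 fold change of PMEI9 was -0.74.

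The immunity-linked inhibitors PMEI10 and PMEI12 varied between replicates. PMEI10 (AT1G62760) had 7.12 and 11.9 TPM in the libraries labelled erf4, against 5.10 and 9.32 TPM in the wild type, with overlap and the higher value in replicate 2 of each genotype. PMEI12 (AT5G46960) had 4.58 and 10.5 TPM in the libraries labelled erf4, against 15.5 and 1.20 TPM in the wild type. The wild-type libraries were 12.9-fold apart and enclosed both others, and the mean TPM was lower in the libraries labelled erf4 (ratio 0.901) although the log2 fold change was 0.41. The pollen inhibitors PMEI1 (AT1G48020) and PMEI2 (AT3G17220) were at trace level with overlapping genotypes. PMEI2 had 3.63 and 4.79 TPM in the libraries labelled erf4, against 4.82 and 3.09 TPM in the wild type, and PMEI1 ranged from 0.45 to 1.57 TPM over the 4 libraries. Pollen markers, 7 genes, summed to 10.1 and 7.67 TPM in the libraries labelled erf4 and to 6.03 and 8.72 TPM in the wild type, and the sperm histone gene MGH3 (AT1G19890) was at 0 in 3 libraries.

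Among the expressed members with no role given here, AT4G12390 and AT1G14890 lay above the wild-type range. AT4G12390 had 24.5 and 18.7 TPM in the libraries labelled erf4, against 14.3 and 16.1 TPM in the wild type (log2 fold change 0.47, SE 0.20, limma adjusted p = 0.754, not called), and the log2 fold change was 0.29 without replicate 1 labelled erf4. Its gene model overlaps by 163 bases, on the other strand, with AT4G12400, which had 93.0 and 46.0 TPM in the libraries labelled erf4, against 54.3 and 16.0 TPM in the wild type. Whether counting used strand is not given in the sources used here, so the value of AT4G12390 is uncertain and the part of the overlap was not tested. AT1G14890 had 22.7 and 26.7 TPM in the libraries labelled erf4, against 15.6 and 21.3 TPM in the wild type (log2 fold change 0.41, SE 0.21, and 0.20 without wild type replicate 1).

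The closest relative of AT1G14890 in sequence, AT2G01610, with 66.2% identity, had 35.2 and 33.0 TPM in the libraries labelled erf4, against 49.4 and 18.3 TPM in the wild type. Here the wild-type libraries enclosed the others. AT3G47670 had 22.3 and 23.3 TPM in the libraries labelled erf4, against 22.9 and 19.1 TPM in the wild type, and its log2 fold change was the nearest to 0 of the 14 members at 5 TPM or more (log2 fold change 0.12, 95% interval -0.31 to 0.54). AT5G38610 had 8.29 and 22.5 TPM in the libraries labelled erf4, against 12.4 and 21.1 TPM in the wild type, and AT3G17130 had 13.8 and 4.05 TPM in the libraries labelled erf4, against 6.99 and 3.19 TPM in the wild type. AT5G38610 had its higher value in replicate 2 of each genotype and AT3G17130 in replicate 1, and the genotypes overlapped for both. AT3G47670, AT5G38610 and PMEI7 also overlap other gene models, so that their reads may be shared.

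**Figure D5:**
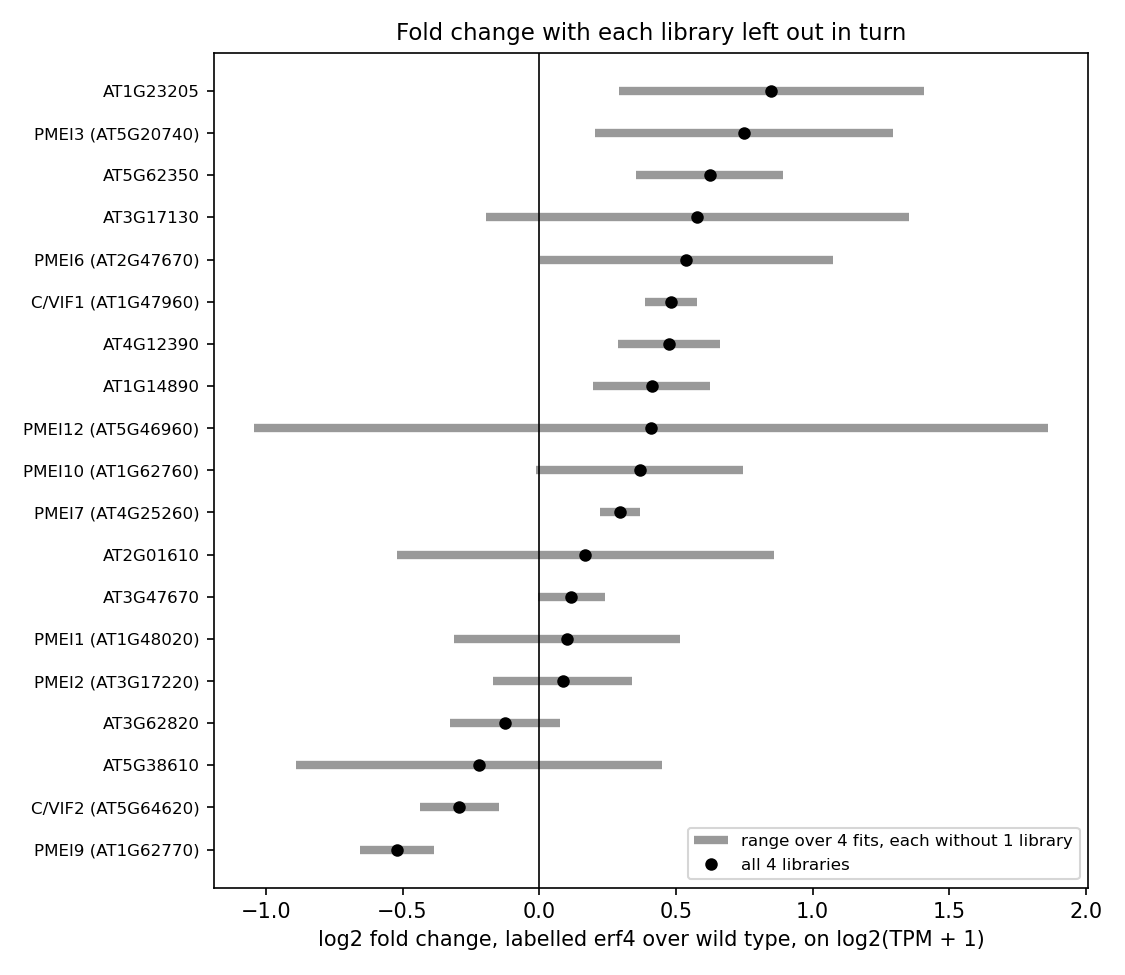
Log2 fold change of the 19 tested inhibitor genes, labelled erf4 over wild type, with all 4 libraries (points) and its range when each library is left out in turn (grey lines). PMEI12 spans -1.04 to 1.86, while C/VIF1 stays between 0.39 and 0.58 and PMEI9 between -0.66 and -0.39.

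The 3 named inhibitors outside the group stood above the wild-type range, beside 21.5% of all tested genes. Their log2 fold changes were 0.61 for PMEI13, 1.19 for PMEI14 (AT1G56100) and 0.90 for PMEI15 (AT3G05741), and limma called 0 of the 3. PMEI14 alone outweighed the 32 genes, its TPM being 9.99 and 4.98 times their sum in the libraries labelled erf4 and 5.40 and 3.09 times in the wild type. Those ratios overlapped between the genotypes.

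Pectin methylesterases, the enzymes that PMEIs act on, went both ways. Of 61 listed genes 28 were tested, 18 with positive and 10 with negative log2 fold changes (median 0.17). Of the 28, 9 exceeded both wild-type libraries and 6 lay under both, beside 21.5% and 12.2% of all tested genes. Limma called 0, with 7 higher and 3 lower at an unadjusted p under 0.05, beside 4.23% and 2.74% of all tested genes. The smallest p-values belonged to AT1G11590, AT1G11580 and AT4G03930, with log2 fold changes of 1.29, 0.83 and 0.98. The summed TPM of the 32 inhibitors was 0.235 and 0.162 of that of the listed enzymes in the libraries labelled erf4, against 0.203 and 0.146 in the wild type. That sum includes C/VIF1 and C/VIF2, which inhibit invertases. Together they had 145 and 135 TPM in the libraries labelled erf4 and 105 and 120 TPM in the wild type. The ratio to the enzymes was higher in replicate 1 of each genotype, and the genotypes overlapped. With PMEI13, PMEI14 and PMEI15 added to the inhibitors it was 2.61 and 0.982 in the libraries labelled erf4, against 1.32 and 0.611 in the wild type, again with overlap.

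Genes that make homogalacturonan were nearly level. All 11 listed galacturonosyltransferase and methyltransferase genes were tested, with 6 positive and 5 negative log2 fold changes between -0.18 and 0.21 (median 0.03). Among these 11, 2 exceeded both wild-type libraries and 1 lay under both, beside 21.5% and 12.2% of all tested genes. Limma called 0, also 0 at an unadjusted p under 0.05. The smallest p-values were those of GAUT11 (AT1G18580), GAUT1 (AT3G61130) and GAUT14 (AT5G15470), with log2 fold changes of 0.21, 0.19 and -0.18. Among 3 listed subtilases linked to pectin methylesterases, SBT1.7 (AT5G67360) stood at 0.67, SBT3.5 (AT1G32940) at 0.08 and the site-1 protease gene (AT5G19660) at -0.05. Limma called 0 of them, with 1 higher at an unadjusted p under 0.05, beside 4.23% of all tested genes.

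The promoters of the inhibitor genes were searched for the GCC box, a motif bound by ethylene response factors, from 250 bases before to 50 bases after each annotated gene start. The letters AGCCGCC were found on either strand in 0 of the 32 windows and in 0.794% of 27444 windows of protein-coding genes. The shorter core GCCGCC, which lies within the longer motif, was found in 0 of the 32 and in 2.57% of all windows. The absence of these letters says only that they do not occur in this window.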

How the data were processed

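The authors deposited TPM per gene for 4 libraries, rounded to 2 decimals, with the mean of each genotype, which entered no test. Per the submitters' processing notes, the tools were fastp, HISAT and RSEM; the sources used here give neither versions nor a build or gene models. TPM keep no depth, so no counting interval is given. Groups and replicate numbers came from the sample titles.

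Genes with at least 1 TPM in at least 2 libraries (20804) were tested with limma 3.58.1 in R 4.3.3 on log2(TPM + 1), with a variance trend, two-sided, with genotype as the only term and Benjamini-Hochberg adjustment over all tested genes. Fold changes on this scale understate those of low genes. Simulated data were used to check that the mean estimated log2 fold change matched the change put in. How many changed genes the test recovers is not given here. RefSeq's TAIR10.1 annotation, matching 98.1% of identifiers, gave names, domains, exons, gene order, coding sequences and promoter windows. Identities are from global alignments (Biopython 1.88). Coordinates are left out, since the deposited table names no build. PMEI numbers that RefSeq lacks follow common usage.

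The members and lists were chosen with earlier results of these data known. Library values are given for members with a mean of at least 5 TPM and for the 6 with the smallest p; from other lists the 3 genes with the smallest p are named. Lower members given with values (PMEI1, PMEI2, PMEI3, PMEI7 and AT3G49330), AT1G23200, AT5G64640, AT4G12400, MUM2 and PRX36 were named after their values were seen. Alternatives covered the pseudocount, the filter, rescaling, the variance trend, the replicate number as a term and leaving out each library.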

Additional observations from a re-analysis of the deposited data

How the results depend on the processing

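With genotype as the only term, pseudocounts of 0.1 and 5, both filters, both rescalings and the fit without a variance trend called 0 genes, 0 members and 0 genes of the pathway lists. The median log2 fold change of the tested members was 0.13 with a pseudocount of 5 and 0.19 with no filter. With no filter 29 members entered and 4 lay below the wild-type range, against 1 below it with a mean of at least 5 TPM (14 members). Over all tested genes 11.9% lay below it with no filter and 11.3% with a mean of at least 5 TPM. Leaving out each library gave medians from 0.088 to 0.34, 8 to 12 members above the wild-type range and 2 to 5 below it. In the same fits 29.2% to 55.1% of all tested genes lay above the range and 16.8% to 46.5% below it. With 1 library in a genotype that library is assumed to vary like the other genotype. Sign changes occurred only in those fits: log2 fold changes ran from -0.20 to 1.35 for AT3G17130, -0.33 to 0.076 for AT3G62820, -0.89 to 0.45 for AT5G38610, -0.31 to 0.51 for PMEI1, -0.17 to 0.34 for PMEI2, -1.04 to 1.86 for PMEI12, -0.011 to 0.75 for PMEI10, -0.52 to 0.86 for AT2G01610 and -0.0051 to 0.24 for AT3G47670. Nothing in the labels pairs libraries by replicate number, although deviations of same-numbered libraries correlated across genes (r = 0.351). With the replicate number as a block, limma called 1083 genes, 11 of the pathway lists and 2 members, AT1G23205 (adjusted p = 0.0196) and AT5G62350 (adjusted p = 0.0284); this fit leaves 1 residual degree of freedom, and the cause of the difference was not tested. Depth is unknown, so what it limits cannot be stated.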
